A study of Mus musculus with 12 samples.

Results

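Tumours of mice given brivanib, alone or together with cisplatin, were set against tumours of mice not given it. The comparison was chosen by treatment label and takes in 12 of the 12 libraries of the series. The 6 libraries with brivanib were 3 from the brivanib group and 3 from the combination group, which received brivanib and cisplatin. The 6 libraries without it were 3 from the vehicle group and 3 from the cisplatin group. The injected cells were LLC (Lewis lung carcinoma), an established line from a lung tumour of C57BL/6, and no group carried a genetic change per the labels. The hosts were C57BL/6 females of 6 to 8 weeks, 6 mice per group, and LLC cells in Matrigel went into each flank to give 10 to 12 tumours per group. Intraperitoneal injections of 100 µL began at a total tumour volume of at least 100 mm3 and were repeated 2 times per week for 4 weeks, at doses not given in the sources used here. A mouse could bear 2 tumours and the labels do not tie libraries to mice, so each p-value reflects spread among these tumours, of which some may share a host.

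Brivanib is an inhibitor of the receptor tyrosine kinases for VEGF, which drive the growth of blood vessels, and for FGF, which many tumour and stromal cells carry. Cisplatin is a platinum drug that cross-links DNA. The series title connects brivanib to cGAS, an enzyme that senses DNA in the cytosol; its product activates STING, and the kinase TBK1 and the factor IRF3 then induce type I interferon. Interferon in turn induces a set of antiviral genes through a promoter element known as the ISRE (interferon-stimulated response element). The comparison asks what brivanib did to tumour transcripts irrespective of cisplatin.

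Values are FPKM, fragments scaled to transcript length and library depth, summed per gene. The libraries held 17.2 to 30.9 M recovered fragments. Ribosomal-like features took 37.9% of them in brivanib 5, against 0.271% to 0.658% in the other 11 libraries, which left 19.2 M others in brivanib 5. The tumours also differed in muscle and fat transcripts, and in whole-tumour RNA more cells of a type and more RNA per cell cannot be told apart. The mean log2(FPKM + 1) of skeletal muscle markers was 0.43, 4.36 and 4.06 in brivanib 2, 3 and 5, against 0.48, 0.50 and 0.44 in vehicle 2, 3 and 5. It was 2.37, 0.46 and 0.42 in combination 2, 3 and 4, against 1.63, 0.41 and 1.39 in cisplatin 1, 2 and 3. Muscle markers were thus high in 2 brivanib libraries, 1 combination library and 2 cisplatin libraries, and low in the 3 vehicle libraries. Adipocyte markers stood at 2.39, 4.23 and 2.53 in brivanib and 1.76, 1.84 and 1.92 in vehicle. They stood at 3.51, 3.55 and 3.19 in the combination and 3.02, 1.93 and 2.07 in cisplatin, so all 6 libraries with brivanib were above the vehicle libraries and 4 of them were above cisplatin 1. The proliferation marker Mki67 was present in all libraries, at 30.1 to 48.2 FPKM with brivanib and 28.2 to 46.5 FPKM without it.

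**Figure D1:**
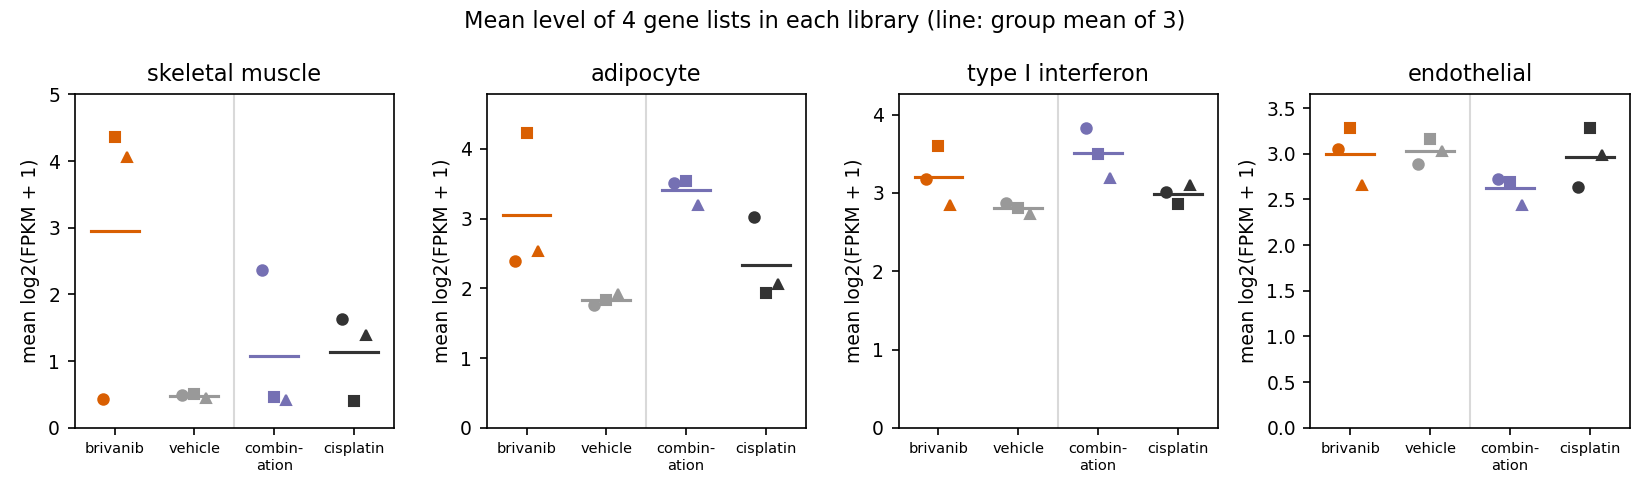
Mean log2(FPKM + 1) of 4 gene lists (vertical axes) in each of the 3 libraries of the 4 groups (horizontal axes); lines are group means and marker shapes run in order of replicate number. Muscle markers reached 4.36 in brivanib 3, adipocyte markers 4.23 in the same library, and the interferon list was highest at 3.83 in combination 2.

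The main effect of brivanib was small against the spread between libraries. With cisplatin as a covariate, 0 of 14246 tested genes (0%) passed an adjusted p of 0.05 (limma on log2(FPKM + 1), two-sided, Benjamini-Hochberg; 9 residual degrees of freedom), and the smallest adjusted p was 0.13. At an unadjusted p of 0.05 there were 1263 genes (8.87%), 678 higher with brivanib (4.76%) and 585 lower (4.11%). limma-voom on recovered fragments also called 0 genes, with 1320 at the unadjusted threshold. Leaving out cisplatin 1 gave 38 calls, 35 higher and 3 lower, and leaving out combination 4 gave 3, all higher.

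A mean for each of the 4 groups gives the same estimates, but the part of the effect that differed with cisplatin no longer counts as spread. In that fit the effect averaged over both cisplatin levels passed in 74 genes (0.519%), 71 higher (0.498%) and 3 lower (0.0211%), with 8 residual degrees of freedom. The count was 138 without cisplatin 1, and 14 to 27 without any one of brivanib 5, the 3 vehicle libraries, cisplatin 2, cisplatin 3, combination 2 or combination 4. Adjusting for the muscle score, or for the adipocyte score, left 1. Brivanib against vehicle passed in 258 genes (1.81%), 243 higher (1.71%) and 15 lower (0.105%), and the combination against cisplatin in 0 (0%), with 960 at an unadjusted p of 0.05 (6.74%). Some genes, such as Cd209g, were near 0 without brivanib (mean 0.0091 FPKM, against 2.24 FPKM with it). They passed the filter, a mean FPKM of at least 1, only through libraries with brivanib. For these only a higher level could be called, so the excess of higher genes is partly set by the filter. At a mean FPKM of at least 5, the averaged contrast called 10 higher and 1 lower, and brivanib against vehicle 65 higher and 4 lower. Of the 74 genes, 70 were also called between brivanib and vehicle. In 12 the groups did not overlap at either cisplatin level, against 0.47% of all genes higher and 0.414% lower. The 74 were chosen on these same libraries, which favours both counts. The 71 higher genes had a median log2 fold change of 2.31 for brivanib minus vehicle and 0.38 for combination minus cisplatin. Of these genes, 60 were above 0 in the second, against 45.9% of all genes. Both contrasts enter the average that chose the 71, so these values are not independent of the choice. A set chosen without the combination and cisplatin libraries is read further below.

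**Figure D2:**
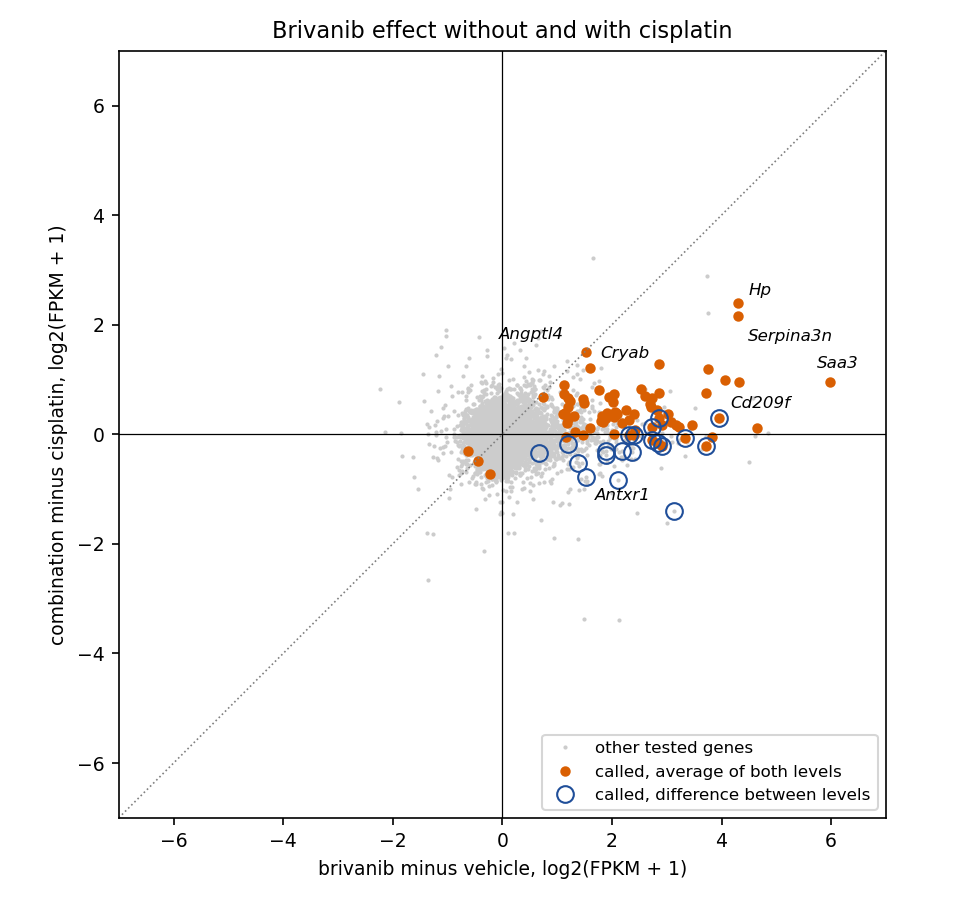
Log2 fold change of each of 14246 genes for brivanib minus vehicle (horizontal) and combination minus cisplatin (vertical), both on log2(FPKM + 1); the dotted line marks equal effects. The 74 genes called for the average (filled) lie mostly far to the right and near 0 on the vertical axis, with Angptl4 almost on the diagonal, and the 20 genes called for the difference (rings) all lie below it.

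The smallest p belonged to Cryab, which encodes the small heat shock protein alpha B-crystallin (GRCm38 chromosome 9, 50751325 to 50756636). Its level was 10.6, 8.85 and 7.35 FPKM in brivanib 2, 3 and 5 and 9.03, 17.8 and 8.18 FPKM in combination 2, 3 and 4, against 1.70, 2.66 and 2.47 FPKM in vehicle 2, 3 and 5 and 6.29, 3.57 and 3.24 FPKM in cisplatin 1, 2 and 3. All 6 libraries with brivanib lay above all 6 others. The main effect was 1.40 ± 0.20 (log2, SE; adjusted p = 0.13 by limma), made of 1.60 without and 1.21 with cisplatin, and the averaged contrast passed (adjusted p = 0.0144). Prickle1, a component of planar cell polarity, was at 1.97 to 7.10 FPKM with brivanib and 0.359 to 2.24 FPKM without (1.01 ± 0.18, adjusted p = 0.155 by limma; averaged contrast 0.0403). The overlap lay in brivanib 3 and brivanib 5, at 1.97 and 2.06 FPKM, against cisplatin 1 and cisplatin 2, at 2.24 and 1.98 FPKM.

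Serpina3n, an inhibitor of serine proteases and an acute phase gene, lies on chromosome 12, 104406729 to 104414329 (GRCm38), and had the same adjusted p as Cryab with a larger difference. It stood at 33.2, 15.2 and 20.2 FPKM in brivanib and 18.5, 11.2 and 12.3 FPKM in the combination, against 0, 0 and 0.555 FPKM in vehicle and 9.52, 0.706 and 0.991 FPKM in cisplatin. The groups of 6 did not overlap, and cisplatin 1 was the one library without brivanib that came near. The main effect was 3.22 ± 0.49 (adjusted p = 0.13 by limma; averaged contrast 0.00695), with 4.29 without and 2.15 with cisplatin.

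**Figure D3:**
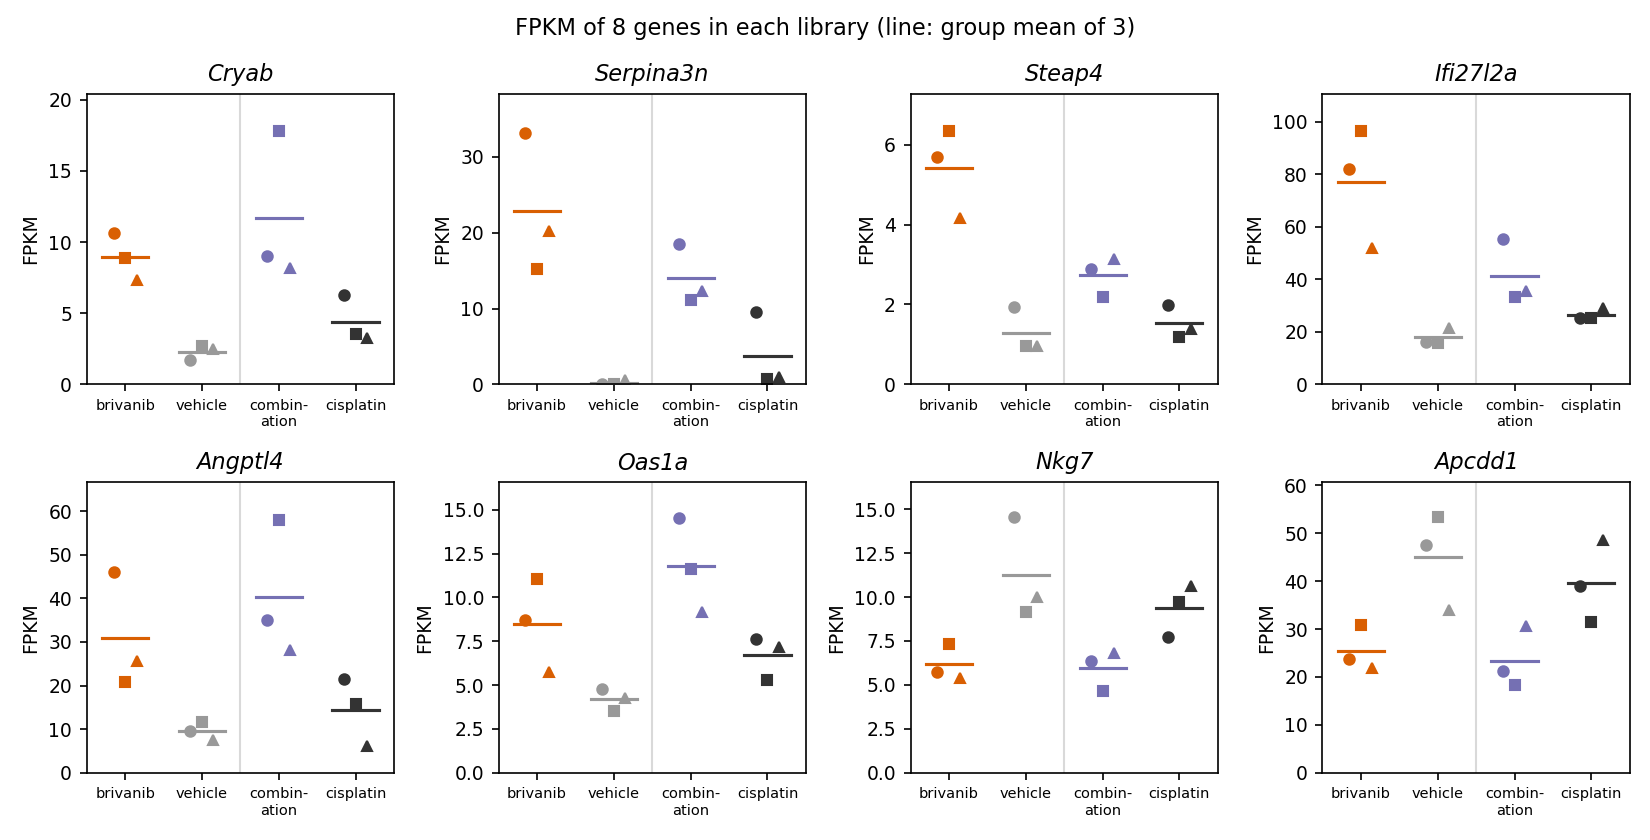
FPKM (vertical axes, from 0) of 8 genes in each library, with brivanib left of vehicle and the combination left of cisplatin; lines are means of 3 and marker shapes run in order of replicate number. Cryab, Serpina3n, Steap4 and Ifi27l2a were higher and Nkg7 and Apcdd1 lower in all 6 libraries with brivanib than in all 6 others, while Angptl4 and Oas1a were separate within each cisplatin level.

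Of the genes that were lower, H2-Ke6, Rhbdl2 and Tmem158 had the smallest p-values. H2-Ke6, whose product is a steroid and fatty acid dehydrogenase despite its name, was at 9.28 to 14.1 FPKM with brivanib and 13.8 to 19.8 FPKM without, a main effect of -0.47 ± 0.08 (adjusted p = 0.155 by limma; averaged contrast 0.0318). Rhbdl2, a rhomboid membrane protease, was at 16.1, 17.9 and 17.6 FPKM in brivanib and 17.0, 14.4 and 17.2 FPKM in the combination, against 26.6, 27.7 and 27.0 FPKM in vehicle and 17.8, 21.3 and 21.6 FPKM in cisplatin. The single overlap was brivanib 3 against cisplatin 1 (-0.47 ± 0.08, adjusted p = 0.155 by limma; averaged contrast 0.0217). Tmem158, a membrane protein induced by Ras signalling, had a main effect of -0.60 ± 0.12 (adjusted p = 0.155 by limma; averaged contrast 0.0511).

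Complete separation of 6 from 6 was rare, and whether it was more frequent than chance gives was not tested. All 6 libraries with brivanib were above all 6 others in 17 genes (0.119% of those tested) and below them in 24 (0.168%). Besides Cryab and Serpina3n, the 17 included the metalloreductase Steap4, the interferon-induced genes Ifi27l2a, Dhx58 and Sp100, the autophagy regulator Dram1, Thbd (thrombomodulin, an anticoagulant receptor) and the semaphorin Sema4a. Steap4, Dram1, Thbd and Sema4a were taken up after their values were seen. Steap4 was at 5.69, 6.35 and 4.18 FPKM in brivanib and 2.89, 2.19 and 3.13 FPKM in the combination, against 1.93, 0.971 and 0.957 FPKM in vehicle and 1.997, 1.195 and 1.39 FPKM in cisplatin (1.03 ± 0.20, adjusted p = 0.155 by limma; averaged contrast 0.0174). Its level was highest with brivanib alone. Dram1 had a main effect of 0.82 ± 0.16 and Thbd of 0.73 ± 0.16, with adjusted p-values of 0.155 and 0.181 by limma and of 0.00695 and 0.0274 for the averaged contrast.

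The 24 genes that were lower in all 6 included Nkg7, a granule protein of cytotoxic lymphocytes, Apcdd1, an inhibitor of Wnt signalling, Nfkb1, the p105 and p50 subunit of NF-kappaB, and Ctnnb1 (beta-catenin), the last 3 named after their values were seen. Nkg7 was at 5.74, 7.35 and 5.40 FPKM in brivanib and 6.34, 4.64 and 6.83 FPKM in the combination, against 14.6, 9.14 and 10.0 FPKM in vehicle and 7.75, 9.69 and 10.7 FPKM in cisplatin (-0.67 ± 0.13, adjusted p = 0.155 by limma; averaged contrast 0.0567). Combination 4 and brivanib 3 came closest to cisplatin 1. Apcdd1 was at 18.3 to 30.9 FPKM with brivanib and 31.4 to 53.4 FPKM without (-0.77 ± 0.15, adjusted p = 0.155 by limma). Nfkb1 and Ctnnb1 had small differences of -0.27 ± 0.07 and -0.20 ± 0.06.

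Type I interferon response genes had positive medians at both cisplatin levels. The mean log2(FPKM + 1) of the list was 3.174, 3.595 and 2.842 in brivanib 2, 3 and 5, against 2.868, 2.802 and 2.735 in vehicle 2, 3 and 5. Brivanib 5 was thus within the vehicle range. It was 3.828, 3.496 and 3.192 in combination 2, 3 and 4, against 3.013, 2.853 and 3.099 in cisplatin 1, 2 and 3, without overlap. Of 35 tested members of 39, 34 had a positive main effect, with a median of 0.48 against -0.01 for all genes. At an unadjusted p of 0.05, 23 members were higher and 0 lower, against 4.76% of all genes higher, while 0 passed the adjusted threshold. Their medians were 0.37 for brivanib minus vehicle and 0.56 for combination minus cisplatin. In 5 members the groups did not overlap at either level, against 0.47% of all genes, and 3 of the 17 genes with complete separation of 6 from 6 were on this list. Adjusted for the adipocyte score the median was 0.11, and adjusted for the muscle score 0.42. Leaving out 1 library at a time gave medians of 0.36 to 0.59.

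The promoters of this list can be read from RefSeq (GRCm38.p6, 250 bases before to 50 after the start of the gene). The letters GAAANNGAAA on either strand, the core of the ISRE, are in the windows of 14 of 26 members found there (53.8%), against 3.85% of 9510 symbols of tested genes. Shown are 3 members with small p-values whose windows hold them upstream of the start, so that the element can be seen beside the gene's values; capitals mark the match, and overlapping matches run together. Oas1a lies on the minus strand at chr5:120907476-120907775, Oas3 on the minus strand at chr5:120777610-120777909, and Isg15 on the minus strand at chr4:156200769-156201068.
Oas1a: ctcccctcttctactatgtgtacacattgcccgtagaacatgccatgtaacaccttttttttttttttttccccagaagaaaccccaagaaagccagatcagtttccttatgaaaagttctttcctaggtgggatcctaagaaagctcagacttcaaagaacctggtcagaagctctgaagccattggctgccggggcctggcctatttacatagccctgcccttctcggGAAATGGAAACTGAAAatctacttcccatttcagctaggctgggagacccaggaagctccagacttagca
Oas3: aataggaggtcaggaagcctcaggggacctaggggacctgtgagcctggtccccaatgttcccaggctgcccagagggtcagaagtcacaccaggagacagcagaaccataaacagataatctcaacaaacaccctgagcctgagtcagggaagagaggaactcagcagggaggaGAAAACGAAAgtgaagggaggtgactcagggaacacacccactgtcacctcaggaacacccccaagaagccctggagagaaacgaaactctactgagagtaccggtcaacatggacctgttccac
Isg15: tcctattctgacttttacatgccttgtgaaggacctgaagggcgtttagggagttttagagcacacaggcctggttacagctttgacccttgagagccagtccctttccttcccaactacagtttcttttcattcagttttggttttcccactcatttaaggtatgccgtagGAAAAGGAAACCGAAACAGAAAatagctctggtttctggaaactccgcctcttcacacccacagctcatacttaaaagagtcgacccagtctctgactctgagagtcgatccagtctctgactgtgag
The matches begin 20 and 14 bases before the start in Oas1a and 75 in Oas3, and 3 overlapping matches begin 78, 72 and 66 bases before it in Isg15. Of the members described here, Dhx58, Ifi27l2a, Oas2 and Usp18 were not among the 26, and the windows of Sp100, Oasl1, Oasl2 and Irf7 do not hold these letters.

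Among the effectors, Oas1a makes the 2'-5' oligoadenylates that activate RNase L. It was at 8.69, 11.04 and 5.75 FPKM in brivanib and 14.5, 11.6 and 9.17 FPKM in the combination, against 4.78, 3.54 and 4.26 FPKM in vehicle and 7.65, 5.32 and 7.19 FPKM in cisplatin. Within each cisplatin level the groups did not overlap, while brivanib 5 was below cisplatin 1 and cisplatin 3. The main effect was 0.78 ± 0.15 (adjusted p = 0.155 by limma; averaged contrast 0.0549). The related Oas2, Oas3 and Oasl2 had main effects of 0.78 ± 0.21, 0.70 ± 0.20 and 0.61 ± 0.16, each larger in combination minus cisplatin (0.996, 0.92 and 0.74) than in brivanib minus vehicle (0.56, 0.47 and 0.48). The difference between the levels passed for none of them (adjusted p = 0.777, 0.752 and 0.838 by limma). Oas1a and Oasl1 went the other way, with 0.72 and 0.59 in combination minus cisplatin and 0.84 and 0.61 in brivanib minus vehicle. Isg15, a ubiquitin-like modifier, was at 6.04 to 23.7 FPKM with brivanib and 6.20 to 9.60 FPKM without (0.73 ± 0.24, adjusted p = 0.395 by limma). Brivanib 5, at 6.04 FPKM, was the lowest of all 12 libraries for this gene, and combination 2, at 23.7 FPKM, the highest.

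Ifi27l2a, a mitochondrial interferon-induced protein, was the interferon gene with the smallest p. It was at 82.1, 96.6 and 52.0 FPKM in brivanib and 55.3, 33.4 and 35.4 FPKM in the combination, against 16.1, 15.9 and 21.6 FPKM in vehicle and 25.1, 25.1 and 29.1 FPKM in cisplatin (1.30 ± 0.25, adjusted p = 0.155 by limma; averaged contrast 0.00695). It was the single member of the list called in the averaged contrast. Among the RNA sensors and regulators, Dhx58 (LGP2) had a main effect of 0.56 ± 0.13, Ifih1 (MDA5) of 0.54 ± 0.16, Irf7, the factor that amplifies the response, of 0.56 ± 0.18, and Usp18, which removes ISG15 and dampens signalling, of 0.72 ± 0.23. Their adjusted p-values by limma were 0.226, 0.366, 0.395 and 0.392. Sp100, a nuclear body protein, was at 15.2 to 21.4 FPKM with brivanib and 12.6 to 14.5 FPKM without (0.42 ± 0.10, adjusted p = 0.253 by limma).

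**Figure D4:**
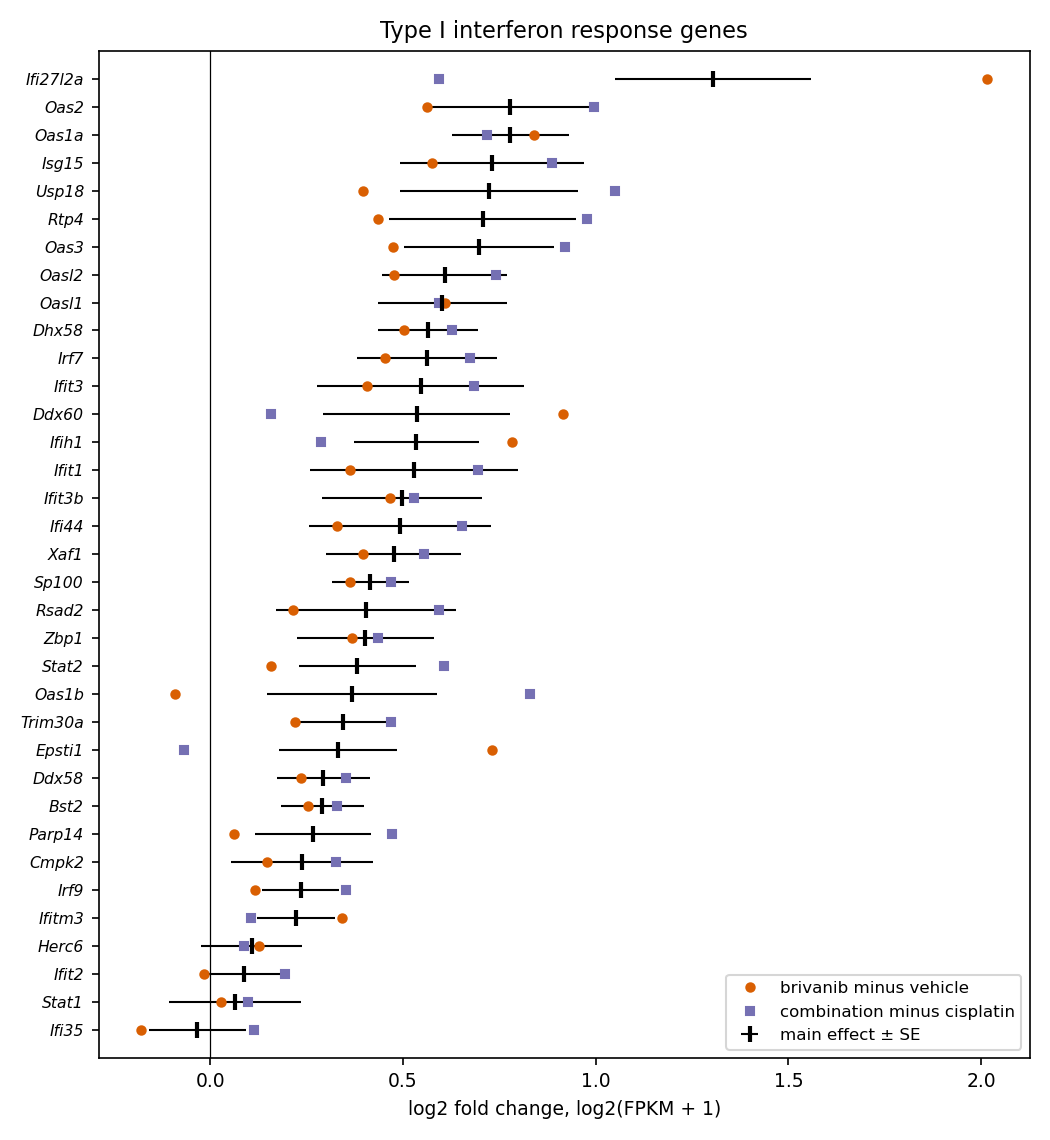
Log2 fold change of each of 35 type I interferon response genes (vertical axis, sorted) on log2(FPKM + 1): the main effect with its standard error, brivanib minus vehicle and combination minus cisplatin. 34 of 35 main effects are above 0, and Ifi27l2a at 1.30 is farthest to the right.

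Genes upstream of interferon gave a median near 0. Of 15 tested members of 20 in the cGAS-STING list, 8 were positive, with a median of 0.01. At an unadjusted p of 0.05, 3 were higher and 1 lower, against 4.76% and 4.11% of all genes. Cgas itself was below the filter, at 0.423, 0.912 and 0.658 FPKM in brivanib and 0.227, 0.172 and 0.521 FPKM in the combination, against 0.336, 0.300 and 0.154 FPKM in vehicle and 0.127, 0.219 and 0.385 FPKM in cisplatin. The 3 brivanib libraries were above the 3 vehicle libraries, as in 8.95% of all tested genes, whereas the combination and cisplatin libraries overlapped. Ifnb1 (interferon beta) was listed at 0 in 10 of the 12 libraries, with 0.119 FPKM in brivanib 3 and 0.148 FPKM in combination 4. The gene for STING, named Tmem173 in the deposited table, was at 19.7 to 24.7 FPKM with brivanib and 18.7 to 22.6 FPKM without (0.09 ± 0.08), and Tbk1 had a main effect of -0.23 ± 0.07 (adjusted p = 0.394 by limma). The DNA-binding p200 family members Ifi211, Ifi205 and Ifi204, which are also interferon-induced, had main effects of 0.49 ± 0.13, 0.75 ± 0.20 and 0.52 ± 0.19 (adjusted p = 0.308, 0.327 and 0.453 by limma). Cxcl10, a chemokine induced by interferon, was at 5.79 to 12.0 FPKM with brivanib and 5.56 to 10.6 FPKM without (0.01 ± 0.19).

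Acute phase and complement genes had large fold changes, with the larger part in the libraries without cisplatin. All 8 tested acute phase genes of 16 had a positive main effect, with a median of 1.60; 6 had an unadjusted p under 0.05 and 4 passed in the averaged contrast, against 4.76% and 0.498% of all genes. Their medians were 3.12 for brivanib minus vehicle and 0.63 for combination minus cisplatin. The filter on mean FPKM admits a gene near 0 without brivanib only through libraries with brivanib. Lbp passed it that way, at a mean of 3.65 FPKM with and 0.27 FPKM without brivanib. The count of positive signs and the medians are thus partly set by the filter. Hp (haptoglobin, which binds free haemoglobin) was at 16.2, 101 and 20.9 FPKM in brivanib and 41.0, 21.0 and 37.7 FPKM in the combination, against 0.347, 1.17 and 0.736 FPKM in vehicle and 27.8, 1.94 and 1.88 FPKM in cisplatin. Apart from cisplatin 1, the libraries without brivanib were all below 2 FPKM. The main effect of Hp was 3.35 ± 0.62 (adjusted p = 0.155 by limma; averaged contrast 0.0352). It was 3.94 without cisplatin 1 (adjusted p = 0.00196 by limma) and 1.30 after adjusting for the adipocyte score (adjusted p = 0.608).

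Saa3, a serum amyloid A, was at 162, 27.3 and 120 FPKM in brivanib and 7.71, 1.27 and 7.33 FPKM in the combination, against 0, 0.306 and 0.704 FPKM in vehicle and 9.23, 1.26 and 0 FPKM in cisplatin. Only the brivanib libraries stood clear of the rest. The main effect was 3.46 ± 0.91 (adjusted p = 0.308 by limma, averaged contrast 0.0319), with 5.98 without and 0.95 with cisplatin. Lbp, which presents bacterial lipopolysaccharide, was at 5.37 to 7.62 FPKM in brivanib and 0.476 to 1.13 FPKM in the combination, against 0 to 0.0936 FPKM in vehicle and 0.135 to 1.23 FPKM in cisplatin. Its effect differed between the levels (-2.56 ± 0.38, adjusted p = 0.0275 by limma). Of 17 complement genes 15 were positive (median 0.52; 1.23 without and 0.17 with cisplatin), 7 were higher at an unadjusted p of 0.05, against 4.76% of all genes, and 3 passed in the averaged contrast, against 0.498%. Serping1, the C1 inhibitor, and C3, the hub of the cascade, had main effects of 2.47 ± 0.52 and 2.23 ± 0.53. Their adjusted p-values by limma were 0.1745 and 0.237, and 0.0217 and 0.0186 for the averaged contrast. Cfd (adipsin, a product of fat cells that is also on the adipocyte list) was at 3.21 to 97.3 FPKM with brivanib, listed at 0 in vehicle 2, 3 and 5 and cisplatin 2, and at 20.02 FPKM in cisplatin 1 and 0.559 FPKM in cisplatin 3.

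Fat cell transcripts also stood higher at both levels. All 14 tested adipocyte markers of 21 were positive, with medians of 0.79 for the main effect, 0.67 for brivanib minus vehicle and 0.77 for combination minus cisplatin; 9 had an unadjusted p under 0.05, against 4.76% of all genes. In 3 members the groups did not overlap at either level, against 0.47% of all genes. The filter on mean FPKM, which 14 of the 21 passed, may favour positive signs here. Summed over the 21 markers, none of which was at 0 in all libraries, the level was 125 to 510 FPKM in brivanib against 75.1 to 91.2 FPKM in vehicle, and 180 to 454 FPKM in the combination against 87.0 to 152 FPKM in cisplatin. The fatty acid transporter Cd36 was at 14.7, 17.0 and 13.9 FPKM in brivanib and 20.9, 47.9 and 11.8 FPKM in the combination, against 5.61, 5.21 and 5.01 FPKM in vehicle and 9.52, 12.3 and 8.86 FPKM in cisplatin (1.23 ± 0.24, adjusted p = 0.155 by limma). Fabp4, the fatty acid binding protein of adipocytes, was at 13.6 to 273 FPKM with brivanib and 4.72 to 21.3 FPKM without (2.44 ± 0.58), and Car3, a carbonic anhydrase abundant in fat and muscle, at 0.605 to 59.9 FPKM with brivanib and 0 to 11.8 FPKM without (2.98 ± 0.79).

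Angptl4, a secreted inhibitor of lipoprotein lipase that fatty acids and hypoxia induce, had nearly the same effect at both levels. It was at 46.1, 20.9 and 25.6 FPKM in brivanib and 34.9, 58.0 and 28.1 FPKM in the combination, against 9.58, 11.6 and 7.51 FPKM in vehicle and 21.5, 15.8 and 6.19 FPKM in cisplatin. The sole overlap of 6 with 6 was brivanib 3 below cisplatin 1. The effect was 1.53 without and 1.504 with cisplatin (main effect 1.52 ± 0.28, adjusted p = 0.155 by limma; averaged contrast 0.0457). Of 33 hypoxia and glycolysis genes 29 were positive, with a median of 0.16. At an unadjusted p of 0.05, 3 were higher, against 4.76% of all genes. Among them were the glycolytic regulator Pfkfb3 (0.55 ± 0.18, adjusted p = 0.406 by limma) and the lactate exporter Slc16a3 (0.71 ± 0.29, adjusted p = 0.504 by limma).

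None of the 14246 genes passed the main test, and so no transcript of the receptors that brivanib inhibits did. Among 10 tested VEGF and FGF receptor genes of 15, the median was -0.01. At an unadjusted p of 0.05, 0 were higher and 1 lower, against 4.76% and 4.11% of all genes. Kdr, the main VEGF receptor of endothelium, was at 1.99 to 6.60 FPKM with brivanib and 2.75 to 4.23 FPKM without (-0.01 ± 0.16), and Flt1, which also binds VEGF, at 3.43 to 8.36 FPKM and 3.94 to 6.68 FPKM (0.11 ± 0.17). Fgfr1, the FGF receptor usual in mesenchymal cells, was at 108 to 150 FPKM with brivanib and 121 to 175 FPKM without (-0.23 ± 0.11, adjusted p = 0.594 by limma). The co-receptor Sdc2 was the one member under an unadjusted p of 0.05 (-0.28 ± 0.11, adjusted p = 0.466 by limma). Flt4, Fgfr2 and Fgfr3 were below the filter, at 0.135 to 0.900, 0 to 0.112 and 0 to 0.440 FPKM with brivanib and 0.369 to 1.16, 0 to 0.456 and 0 to 0.0689 FPKM without.

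Of 13 tested ligand genes of 22, Angptl4 was the one higher at an unadjusted p of 0.05, and Vegfd and Angpt1, the agonist of the endothelial receptor Tie2, were lower (-0.36 ± 0.16 and -0.47 ± 0.22; adjusted p = 0.546 and 0.555 by limma). Of all genes, 4.76% were higher and 4.11% lower at that threshold. Vegfa was at 13.4 to 43.7 FPKM with brivanib and 10.0 to 24.4 FPKM without (0.31 ± 0.23), and Pgf at 1.56 to 17.5 FPKM and 0.962 to 9.63 FPKM (0.11 ± 0.41). Feedback genes of the ERK pathway, which FGF and VEGF receptors feed, had a median of 0.17 over 19 genes, with Ccnd1 (cyclin D1) higher (0.21 ± 0.08) and the pathway inhibitors Spred1 and Spry2 lower (-0.15 ± 0.06 and -0.23 ± 0.10) at an unadjusted p of 0.05. Dusp6, the ERK phosphatase, was at 47.8 to 102 FPKM with brivanib and 51.2 to 72.0 FPKM without (0.11 ± 0.12).

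No endothelial marker passed the main test, which no gene passed. The medians of these markers had opposite signs at the 2 cisplatin levels, a difference that was not tested for the list. Of 24 tested markers of 25, 5 had a positive main effect (median -0.18), and their medians were 0.03 for brivanib minus vehicle and -0.31 for combination minus cisplatin, where 2 of 24 were above 0. The mean log2(FPKM + 1) of the list was 2.73, 2.70 and 2.44 in the combination and 2.64, 3.28 and 2.98 in cisplatin, so these groups overlapped through cisplatin 1. At an unadjusted p of 0.05, 0 were higher and 3 lower, against 4.11% of all genes lower. These were Cldn5, a tight junction protein of endothelium (-0.83 ± 0.27, adjusted p = 0.395 by limma), the receptor Tie1 (-0.49 ± 0.20, adjusted p = 0.503 by limma) and Cdh5 (VE-cadherin). Cdh5 was at 17.8, 21.9 and 10.9 FPKM in brivanib against 14.6, 20.9 and 19.2 FPKM in vehicle, and at 9.37, 9.50 and 8.41 FPKM in the combination against 11.4, 21.8 and 16.1 FPKM in cisplatin. The combination libraries were all below the cisplatin libraries, and the other pair overlapped (-0.44 ± 0.19, adjusted p = 0.518 by limma; difference between the levels -0.61 ± 0.35, adjusted p = 0.615 by limma). Pecam1 was at 17.4 to 27.0 FPKM with brivanib and 17.3 to 30.8 FPKM without (-0.23 ± 0.14). Of the tip cell, Notch and apelin genes, Hes1, a target of Notch, and Cxcr4 were lower at an unadjusted p of 0.05 (-0.52 ± 0.17 and -0.71 ± 0.32).

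Matrix, macrophage and chemokine lists had positive medians for brivanib minus vehicle and medians of either sign nearer to 0 for combination minus cisplatin. Elastic fibre and small proteoglycan genes had a median of 1.58 for brivanib minus vehicle and -0.12 for combination minus cisplatin over 18 tested genes. Of these, 16 and 4 were above 0, and 4 passed in the averaged contrast, against 0.498% of all genes. Prelp and Fbln1, both among those 4, passed the filter only through libraries with brivanib. Their means were 3.40 and 3.78 FPKM with and 0.27 and 0.43 FPKM without it. The median without cisplatin and these counts are thus partly set by the filter. Efemp1 (fibulin-3) was at 10.6, 7.88 and 7.12 FPKM in brivanib and 2.77, 1.56 and 3.05 FPKM in the combination, against 0.542, 0.641 and 0.689 FPKM in vehicle and 3.05, 0.294 and 0.335 FPKM in cisplatin (1.68 ± 0.35, adjusted p = 0.17 by limma, averaged contrast 0.0217). The combination overlapped only cisplatin 1. For 17 collagen chains the medians were 0.75 without and -0.33 with cisplatin, with 13 and 1 of them above 0; Col1a1 had 4.85 without and 0.03 with it. The collagen cross-linking enzymes Lox and Loxl1 had 4.57 and 3.22 without and 0.66 and 0.13 with cisplatin. The difference between the levels did not pass for Col1a1, Lox or Loxl1 (adjusted p = 0.157, 0.205 and 0.067 by limma).

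Macrophage markers had medians of 1.09 without and -0.003 with cisplatin over 20 genes, and resident macrophage and CD209 genes 2.10 and 0.10 over 16. Of these 16, 4 passed in the averaged contrast, against 0.498% of all genes higher. The filter described for acute phase genes also bears on genes near 0 without brivanib here. Cd163, a scavenger receptor for haemoglobin and haptoglobin, was at 12.5, 7.54 and 10.9 FPKM in brivanib and 4.73, 3.59 and 7.37 FPKM in the combination, against 0.230, 0.467 and 0.960 FPKM in vehicle and 7.47, 1.13 and 1.51 FPKM in cisplatin (1.81 ± 0.42, adjusted p = 0.237 by limma, averaged contrast 0.0325). Only cisplatin 1 reached the range of the combination. Clec10a, a galactose-type lectin of macrophages and dendritic cells, had 2.04 without and 0.73 with cisplatin (main effect adjusted p = 0.226 by limma, averaged contrast 0.0479). Selenop, the selenium transport protein, had 0.74 without and 0.85 with cisplatin (main effect 0.80 ± 0.18, adjusted p = 0.226 by limma). Of 24 chemokines 21 were positive, with medians of 1.2 without and 0.06 with cisplatin, and 2 passed in the averaged contrast, against 0.498% of all genes higher. Among them was Ccl6, an attractant of myeloid cells, with a main effect of 1.08 ± 0.28 (adjusted p = 0.308 by limma, averaged contrast 0.0447). It was made of 1.82 without and 0.33 with cisplatin.

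The test of the difference itself found 20 genes (0.14%), all with a lower brivanib effect in the presence of cisplatin. Some, such as Cd209f, passed the filter only through the 3 brivanib libraries (mean 16.0 FPKM, against 0.0743 to 0.333 FPKM in the other groups). For these only a lower effect could be called, so the shared direction is partly set by the filter. At a mean FPKM of at least 5 the count was 2. Leaving out 1 library at a time gave 1 (without vehicle 3) to 27 (without combination 4), and the count was 0 with a pseudocount of 0.1 or with limma-voom and 1 with the muscle score as a covariate. The 5 with the smallest p were the macrophage lectins Cd209f and Cd209g, the fibroblast marker Pi16, the matrix protein Fndc1 and the collagen receptor Antxr1. Cd209f was at 16.6, 13.3 and 18.3 FPKM in brivanib against 0, 0 and 0.277 FPKM in vehicle, and at 0.374, 0 and 0.624 FPKM in the combination against 0.223, 0 and 0 FPKM in cisplatin. Its difference was -3.67 ± 0.31 (adjusted p = 0.000939 by limma). Antxr1 had opposite signs, 1.53 ± 0.20 without and -0.78 ± 0.20 with cisplatin (difference -2.31 ± 0.29, adjusted p = 0.0129 by limma). Among genes with a higher effect in the presence of cisplatin none passed; the smallest p belonged to Ifi207, of the p200 family (1.51 ± 0.31, adjusted p = 0.0898 by limma). Ifi207 was at 11.3, 7.28 and 11.1 FPKM in brivanib against 19.1, 18.6 and 13.5 FPKM in vehicle, and at 55.6, 78.0 and 44.6 FPKM in the combination against 32.3, 30.0 and 38.9 FPKM in cisplatin. The groups were separate in opposite directions. The next named genes were Nbdy, Arglu1 and Ankhd1 (0.63 ± 0.14, 0.59 ± 0.13 and 1.05 ± 0.23; adjusted p = 0.109, 0.109 and 0.111 by limma).

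The 243 genes called higher in brivanib than in vehicle were read in combination minus cisplatin, which shares no library with that contrast. There 130 of them were above 0 (53.5%, against 45.9% of all genes), with a median of 0.03, and 10 were higher without overlap (4.12%, against 4.94% of all genes).

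**Figure D5:**
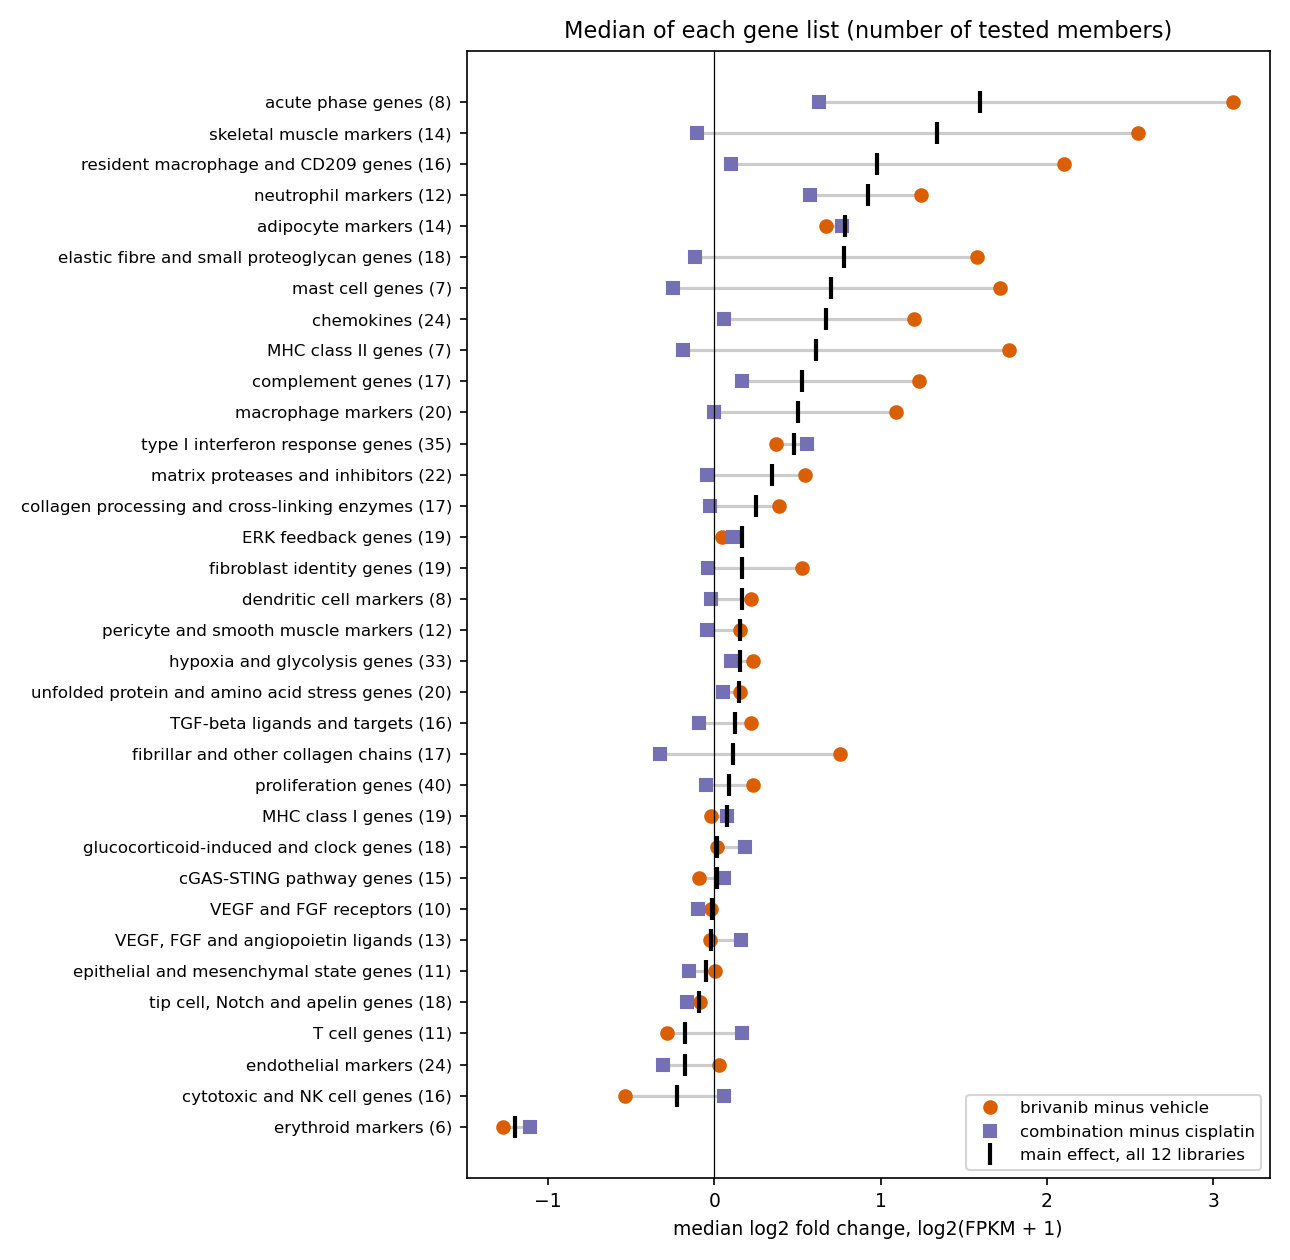
Median log2 fold change on log2(FPKM + 1) of each list with at least 5 tested members (vertical axis, member number in brackets) for brivanib minus vehicle, combination minus cisplatin and the main effect of all 12 libraries. Interferon, adipocyte and erythroid lists have both medians on one side of 0 and close together, while matrix and macrophage lists are spread apart.

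Lymphocyte genes had medians below 0 for the main effect. Of 16 tested cytotoxic and NK cell genes of 20, 1 had a positive main effect, and apart from Nkg7 none had an unadjusted p under 0.05; their medians were -0.54 without and 0.06 with cisplatin, and the median of the main effect was -0.23, but 0.11 adjusted for the muscle score, 0.38 adjusted for the adipocyte score and -0.03 without brivanib 3. T cell genes had a median of -0.18 over 11 of 22, with 0 under an unadjusted p of 0.05, against 8.87% of all genes. Cd8a was below the filter, at 0 to 0.473 FPKM with brivanib and 0.0623 to 4.52 FPKM without; the highest values, 4.52 and 2.31 FPKM, were in vehicle 2 and vehicle 3. Cd274 (PD-L1) was at 3.67 to 7.40 FPKM with brivanib and 2.86 to 6.49 FPKM without (0.51 ± 0.18, adjusted p = 0.431 by limma). MHC class I genes had a median of 0.08 over 19, and MHC class II genes 1.77 without and -0.19 with cisplatin over 7. Neutrophil markers were positive in 11 of 12 tested genes, with a median of 0.93 (1.24 without and 0.57 with cisplatin) and 8 under an unadjusted p of 0.05, against 4.76% of all genes. The list's score was 1.78, 3.36 and 1.87 in the combination against 1.76, 2.46 and 1.08 in cisplatin. Retnlg, a resistin-like product of neutrophils, was at 2.04, 28.9 and 2.56 FPKM in the combination against 1.69, 2.96 and 1.44 FPKM in cisplatin, so combination 3 stood apart in both.

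Red cell transcripts were lower with brivanib at both levels, within a wide spread. All 6 tested erythroid markers of 11 were negative (median -1.2), and 4 had an unadjusted p under 0.05, against 4.11% of all genes. Hbb-bs, an adult beta globin, was at 1209, 260 and 180 FPKM in brivanib against 655, 1245 and 1173 FPKM in vehicle, and listed at 0 in all 3 combination libraries against 32.9, 6.46 and 0 FPKM in cisplatin. Brivanib 2 lay within the vehicle range (main effect adjusted p = 0.43 by limma). The paired globin genes are near-identical, so how RSEM split their fragments is uncertain. Skeletal muscle markers were positive in 14 of 14 tested genes of 24, with medians of 2.55 without and -0.11 with cisplatin. The filter may favour positive signs here too, as for the acute phase genes. The libraries with high muscle scores are those named above. Proliferation genes had a median of 0.09 over 40 (0.23 without and -0.05 with cisplatin), and 7 were higher at an unadjusted p of 0.05, against 4.76% of all genes, among them Ube2c and Prc1 (0.28 ± 0.10 and 0.23 ± 0.08). Of the glucocorticoid-induced and clock genes, the clock output gene Dbp was lower at both levels without overlap (-0.68 ± 0.17; 4.18 to 9.57 FPKM with brivanib and 7.95 to 16.5 FPKM without; adjusted p = 0.27 by limma), and the clock factor Arntl had 0.42 ± 0.13 and the cell cycle inhibitor Cdkn1a 0.67 ± 0.23.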

How the data were processed

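RNA sequencing of 12 tumours was read from 1 deposited table of FPKM per transcript, a unit the authors normalized to transcript length and depth. Bowtie2 2.2.5 and RSEM 1.2.12 stand in the submitters' processing notes; the design text names mm10 while the notes list mm9, and the sources used here give no drug dose and no strand setting. Of the lines, 3 were broken and dropped, and 1 per-sample column that matched no label was not used. FPKM was summed over 135276 transcripts to 53801 genes.

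The 14246 genes with a mean FPKM of at least 1 were fitted as log2(FPKM + 1), computed here from the deposited values, with limma 3.58.1 in R 4.3.3 (trended moderation, brivanib plus cisplatin, Benjamini-Hochberg over all tested genes, threshold 0.05). The pseudocount of 1 understates fold changes of low genes. The filter uses the mean of all 12 libraries, so a gene near 0 elsewhere passes only through the group where it is high. For such genes the sign of the effect, and the list medians they enter, are partly set by the filter. A fit with a mean per group gave the averaged contrast, both single contrasts and their difference. Low FPKM steps gave whole fragments for 100% of values up to 100 fragments, within 0.01, which gave the depths and a limma-voom alternative. Scores are mean log2(FPKM + 1) of a list. Fits were tested on simulated data. Alternatives were 4 scalings, another pseudocount, 2 filters, covariates, weights, the replicate number as a block, and leaving out each library.

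Members and lists were chosen with earlier results of these data known. Named genes were the 3 with the smallest p in each direction where fewer than 3 passed, up to 4 members with the smallest p from each list (more where a list is described in full), a panel of receptor, vessel, sensor and immune genes, and the 5 with the smallest p of the difference in each direction, without provisional gene models. Genes outside it were taken up after their values were seen. Deviations from the group means correlated at -0.16 to 0.21 between same-numbered libraries, and the main fit did not use the numbers as pairs. Differently numbered libraries were not compared, so whether the numbers mark a shared host or batch was not tested.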

Additional observations from a re-analysis of the deposited data

Results flagged for a closer look

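Of 58 groups of 6 libraries checked, 5 had a library far from the others, where chance flags about 1 in 20 groups. The ribosomal-like share was 37.9% in brivanib 5, against 0.286% to 0.613% in the other libraries with brivanib. The other 4 flags were all cisplatin 1 among the libraries without brivanib: its adipocyte score was 3.02 (others 1.76 to 2.07), Serpina3n 9.52 FPKM (others 0 to 0.991), Hp 27.8 FPKM (others 0.347 to 1.94) and Kdr 2.75 FPKM (others 3.74 to 4.23).

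The brivanib effect differed between the cisplatin levels by the test of the difference itself in 8 of the genes named: by -3.67 in Cd209f, -3.40 in Pi16, -3.13 in Col14a1, -2.82 in Fndc1, -2.61 in Clec3b, -2.56 in Lbp, -2.42 in Cd209g and -2.31 in Antxr1, on the log2(FPKM + 1) scale.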

How the results depend on the processing

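The main count of 0 stayed 0 under every scaling, pseudocount, filter, weighting and covariate tried, and under limma-voom. It was 9 with the replicate block, 74 with a mean per group, 225 in the libraries without cisplatin and 1 in libraries with a muscle score under 0.5, a choice made after seeing the data; leaving out 1 library gave 0 to 38. The counts below, also chosen after seeing the data, come from the mean per group. The averaged contrast (74) gave 41 with quantile normalization, 37 with a pseudocount of 0.1, 44 without a filter, 11 at a mean FPKM of at least 5, 1 with the muscle score, 1 with the adipocyte score and 41 with voom, and 14 to 138 without 1 library. Brivanib minus vehicle (258) gave 69 at FPKM 5, 60 with the muscle score, 24 with the adipocyte score and 116 to 282 without 1 library. Combination minus cisplatin (0) gave 3 without a filter and 0 to 2 without 1 library. The difference (20) gave 0 with a pseudocount of 0.1, 2 at FPKM 5, 1 with the replicate block, 1 with the muscle score, 0 with voom and 1 to 27 without 1 library.

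Some effects changed sign; except where stated, the cause was not tested. Cxcl10 was -0.0188 with equal totals, -0.0222 with the replicate block, -0.10 with the muscle score, -0.19 with the adipocyte score, -0.17 with both and -0.30 in low-muscle libraries. Kdr was 0.052 with the replicate block, 0.0218 with voom and 0.21 without cisplatin. Mki67 was -0.11 with the muscle score, -0.11 with the adipocyte score, -0.0656 with both, -0.16 in libraries with cisplatin and -0.11 in low-muscle libraries. With the adipocyte score and with both scores, Cxcr4 was 0.00585 and 0.00512 and Tmem173 -0.076 and -0.081. Pgf was -0.0195 with voom and -0.14 without cisplatin, where Dusp6 was -0.058; Fgfr1 was 0.0161 in low-muscle libraries. In libraries with cisplatin, Col14a1 was -0.22 and Pi16 -0.0758, against main effects of 1.35 and 1.63, and the test of the difference between the levels passed for both (adjusted p = 0.0129 by limma); H2-Ab1 was -0.19, against 0.90 (0.268). Without 1 library at a time, Cxcl10 ran between -0.105 and 0.103, Kdr between -0.129 and 0.0948, and Pgf between -0.178 and 0.457.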
